A study of Mus musculus with 10 samples.

Results

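The genes described here are 10 genes grouped as meningeal and fibroblast matrix genes, Slc6a20a, Fmod, Ecm2, Ucma, Ccdc80, Ogn, Dcn, Lum, Col1a1 and Col1a2, in the hippocampus of Dp1Yey mice and their control littermates. The name is a label, as Slc6a20a encodes a transporter and Ucma is known from cartilage. Each of the 10 genes was taken as the probe sets annotated to its symbol and to no other gene. All 10 were found, each with 1 probe set, among 19938 genes measured, and none of them lies in the duplicated interval. The genes were chosen partly by their Dp1Yey against control difference on these same arrays, so those differences and their intervals are a description. How many of the 10 passed a threshold over all genes is counted beside the share of all genes that did, and supports nothing.

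RNA from the whole hippocampus, left and right together, of 5 Dp1Yey mice and 5 control littermates was hybridised to Affymetrix mouse gene arrays, 1 array per mouse. All mice were males of 16 weeks. Dp1Yey mice carry 1 extra copy of the segment of chromosome 16 that runs from Lipi to Zbtb21, positions 75540514 to 97962627 of the mouse genome GRCm38, which is related to human chromosome 21, in every tissue and throughout life. The control mice carry no duplication. The background strain is a C57BL/6 substrain, and the labels and the study's methods name different substrains (N and J). Neither source gives the litter of each mouse, so mice of a group are taken as separate animals and litters cannot be taken into account.

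The meninges are the membranes around the brain. Their fibroblasts make fibrillar collagens, the small leucine-rich proteoglycans that bind to those collagens, and a set of transporters that exchange amino acids, organic anions and other solutes with the cerebrospinal fluid. A dissected hippocampus keeps a variable strip of pia and of perivascular fibroblasts, so these transcripts can differ between pieces of the same tissue. In bulk tissue, more cells of a type and more RNA per cell cannot be told apart.

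Sequences of the promoters are shown for the 3 genes that are set against meningeal content below, Ecm2, Ucma and Slc6a20a, and for Fmod, the proteoglycan with the widest difference between the groups. Each run reads 5′ to 3′ on the gene's own strand, 250 bases before to 50 bases after the annotated start, from RefSeq on GRCm38.p6. Capitals mark matches, on either strand, to any of 5 motifs. These were TATAAA, the core of the TATA element, then CCAAT, bound by the factor NF-Y, then GGGCGG, or GC box, bound by Sp factors, then GTAAACA, bound by forkhead factors, and last TGANTCA, bound by AP-1. No match in the printed windows overlaps a match to another motif.
Ecm2, chr13:49504560-49504859, plus strand: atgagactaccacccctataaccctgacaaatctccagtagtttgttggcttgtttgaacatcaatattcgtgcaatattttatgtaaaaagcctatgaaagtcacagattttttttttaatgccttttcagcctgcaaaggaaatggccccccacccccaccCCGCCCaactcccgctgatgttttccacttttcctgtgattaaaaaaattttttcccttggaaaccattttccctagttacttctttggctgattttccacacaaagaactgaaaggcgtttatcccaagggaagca
Ucma, chr2:4975872-4976171, plus strand: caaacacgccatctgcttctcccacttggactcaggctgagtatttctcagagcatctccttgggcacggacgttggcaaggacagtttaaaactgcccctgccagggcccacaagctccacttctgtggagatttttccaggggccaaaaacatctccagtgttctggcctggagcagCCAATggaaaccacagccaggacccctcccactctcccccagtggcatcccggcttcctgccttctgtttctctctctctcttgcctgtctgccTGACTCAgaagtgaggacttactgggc
Slc6a20a, chr9:123678783-123679082, minus strand: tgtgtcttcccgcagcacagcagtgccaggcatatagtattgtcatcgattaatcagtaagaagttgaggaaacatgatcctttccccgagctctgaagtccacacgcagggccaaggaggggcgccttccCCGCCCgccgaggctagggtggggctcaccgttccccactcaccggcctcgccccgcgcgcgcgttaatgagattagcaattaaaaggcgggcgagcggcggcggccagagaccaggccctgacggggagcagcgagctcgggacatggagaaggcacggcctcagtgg
Fmod, chr1:134037004-134037303, plus strand: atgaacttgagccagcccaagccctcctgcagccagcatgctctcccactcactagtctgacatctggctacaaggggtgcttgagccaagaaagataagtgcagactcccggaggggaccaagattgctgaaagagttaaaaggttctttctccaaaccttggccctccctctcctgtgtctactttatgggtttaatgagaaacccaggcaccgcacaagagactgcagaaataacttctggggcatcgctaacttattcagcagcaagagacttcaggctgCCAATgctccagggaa

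The Ecm2 and Slc6a20a promoters each held 1 GC box, on the reverse strand, at -87 and -119 from the start (first base of the match). The Ucma promoter held a CCAAT match at -71 and an AP-1 match at 24, and the Fmod window held a CCAAT match at 35. These motifs are common: among 32851 mouse promoters of the same length, 35.7% held GGGCGG, 37.4% held CCAAT, 13.6% held TATAAA, 7.81% held TGANTCA and 3.65% held GTAAACA. Promoters were found for 6 of the 10 genes. The Ogn window held TATAAA, and the Col1a2 window held CCAAT and also GGGCGG.

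Expression values are RMA log2 values, the background-corrected, normalised and summarised brightness of a probe set, in which a difference of 1 is a 2-fold change. Levels of different probe sets cannot be set against each other. A gene was called above background when its mean exceeded 5.45, the 90th percentile of 1015 olfactory receptor genes. All 10 genes were above that floor. The hippocampal genes Zbtb20, Prox1, Wfs1, Neurod2 and Bcl11b lay at the 84.6th to 97.4th percentile of all genes. Of 143 genes in the duplicated interval, 59 were called higher in Dp1Yey mice. The correlation of an array with the others had a median of 0.9942 for control mouse 2 and 0.9963 for control mouse 1, against 0.9972 to 0.998 for the other 8, so values without these 2 arrays are given beside the results they move.

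Of the 10 genes, 7 were on average higher in Dp1Yey hippocampi and 3 lower, whereas 42.1% of all genes were higher. In limma, with p-values adjusted by Benjamini-Hochberg over all genes, 4 of the 10 were called higher (Slc6a20a, Ecm2, Ucma and Ccdc80) and none lower. The share called over all genes was 0.797%, of which 0.687% were higher and 0.11% lower. Ecm2, Ucma and Ccdc80 had all Dp1Yey mice above all control mice, which held for 2.4% of all genes. By the rank statistic that the study used, rewritten here, 6 of the 10 were called higher (these 4, Fmod and Ogn), against 2.46% of all genes. The limma count was 0 of 10 with each array's interquartile range as a covariate (3.47 to 3.53 in Dp1Yey mice, 3.40 to 3.51 in control mice). It was 1 of 10, Ecm2, without control mice 1 and 2, and also on leaving out any 1 of Dp1Yey mice 1, 3 and 5 or control mice 2, 3 and 4. Nothing is read from any of these counts, because the genes were chosen with this contrast known.

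Ucma encodes a small secreted protein, known from cartilage, that is rich in gamma-carboxylated glutamate. Its levels in Dp1Yey mice 1 to 5 were 9.34, 9.40, 9.24, 8.93 and 10.06, against 8.79, 8.05, 8.26, 8.14 and 8.76 in control mice 1 to 5. The lowest Dp1Yey mouse, mouse 4, lay just above control mouse 1, and Dp1Yey mouse 5 stood highest. The means were 9.39 ± 0.42 in Dp1Yey mice and 8.40 ± 0.35 in control mice (SD, n = 5 each), and differed by 0.99 (95% CI 0.56 to 1.42), or 1.99-fold. This was the widest difference among the 10 genes and also came with one of the widest spreads within a group.

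Ecm2 encodes a secreted matrix protein with leucine-rich repeats. Dp1Yey mice 1 to 5 had log2 levels of 7.09, 7.31, 6.99, 7.28 and 7.25, against 6.86, 6.57, 6.72, 6.74 and 6.76 in control mice. The groups did not overlap, and the lowest Dp1Yey mouse was mouse 3. The means were 7.18 ± 0.14 in Dp1Yey mice and 6.73 ± 0.11 in control mice, which differed by 0.45 (95% CI 0.31 to 0.60), or 1.37-fold.

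Ccdc80 encodes a secreted protein of fibroblasts and adipose tissue. It lies on chromosome 16 at 45093407 to 45127924, outside the duplicated interval, and so is present in 2 copies in both groups. Its log2 levels were 7.15, 7.19, 7.19, 7.10 and 7.29 in Dp1Yey mice and 6.89, 6.92, 6.98, 6.95 and 7.08 in control mice. Dp1Yey mouse 4 was only just above control mouse 5, and the groups did not overlap. The difference was 0.22 (95% CI 0.13 to 0.32), or 1.17-fold, between means of 7.18 ± 0.070 in Dp1Yey mice and 6.96 ± 0.073 in control mice.

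Slc6a20a encodes a sodium-dependent transporter of proline and other imino acids, found in the meninges and choroid plexus among other tissues. Its log2 levels were 9.42, 9.18, 9.57, 9.62 and 9.62 in Dp1Yey mice, against 9.21, 8.95, 8.84, 9.03 and 9.07 in control mice. Dp1Yey mouse 2 fell below control mouse 1, and the other 4 Dp1Yey mice lay above every control mouse. The means were 9.48 ± 0.19 in Dp1Yey mice and 9.02 ± 0.14 in control mice, a difference of 0.47 (95% CI 0.27 to 0.66), or 1.38-fold.

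Fmod, Ogn, Dcn and Lum encode fibromodulin, osteoglycin, decorin and lumican, small leucine-rich proteoglycans that bind or organise collagen fibrils. Fmod had log2 levels of 7.99, 7.29, 7.98, 8.10 and 7.93 in Dp1Yey mice, against 7.36, 7.42, 7.10, 7.25 and 7.55 in control mice. Dp1Yey mouse 2 again stood with the control mice while the other 4 were higher than all of them, and the difference was 0.52 (95% CI 0.23 to 0.82). Ogn had 7.94, 7.01, 7.84, 8.24 and 7.56 in Dp1Yey mice and 7.34, 7.19, 7.50, 7.37 and 7.74 in control mice. Here Dp1Yey mouse 2 was the lowest of all 10 mice and Dp1Yey mouse 4 the highest, and the difference of 0.29 had an interval that spanned 0 (-0.12 to 0.70). Without control mice 1 and 2 it was 0.18.

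Dcn showed 9.60, 9.01, 9.49, 9.94 and 9.55 in Dp1Yey mice and 9.71, 9.52, 8.93, 9.54 and 9.37 in control mice. The groups overlapped almost fully, with a difference of 0.11 (95% CI -0.25 to 0.47), or 0.24 without control mice 1 and 2. Lum showed 5.78, 5.65, 5.86, 6.52 and 5.66 in Dp1Yey mice and 6.33, 5.79, 5.71, 5.75 and 5.90 in control mice, with 1 high mouse in each group. Its means were 5.89 ± 0.36 in Dp1Yey mice and 5.90 ± 0.25 in control mice, and the sign of so small a difference turned under other scalings.

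Col1a1 and Col1a2 encode the chains of type I collagen, the main fibrillar collagen of fibroblasts. Col1a1 had log2 levels of 7.49, 7.36, 7.55, 7.64 and 7.60 in Dp1Yey mice and 7.75, 7.65, 7.55, 7.56 and 7.46 in control mice. Col1a2 had 7.35, 7.06, 7.41, 7.47 and 7.36 in Dp1Yey mice and 7.59, 7.71, 7.31, 7.44 and 7.44 in control mice. Both were on average slightly lower in Dp1Yey mice, by -0.069 for Col1a1 (95% CI -0.20 to 0.065) and -0.17 for Col1a2 (95% CI -0.35 to 0.015), with overlapping groups. Control mice 1 and 2 were the highest for both collagens, and without these 2 arrays the difference was 0.0013 for Col1a1 and -0.067 for Col1a2.

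**Figure D1:**
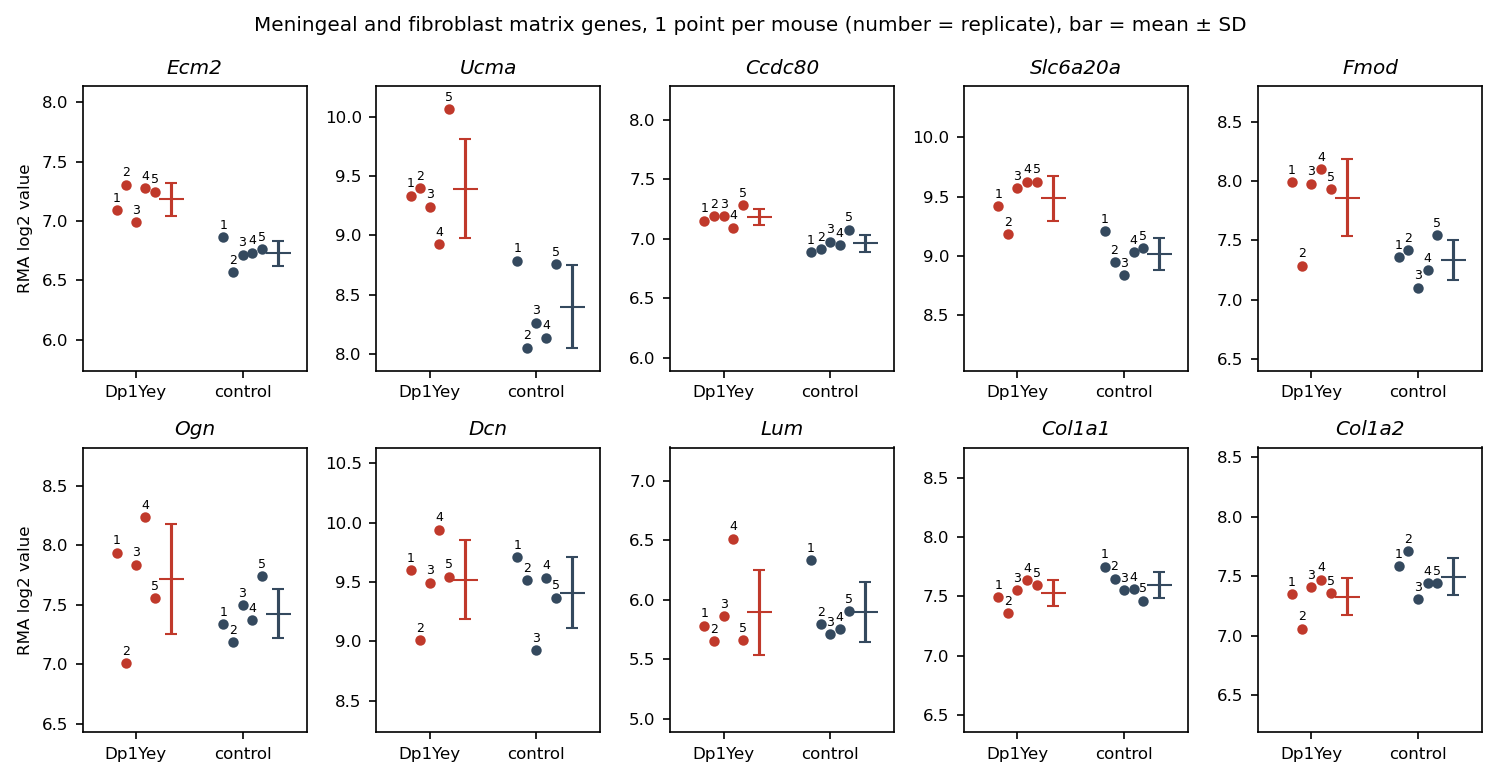
RMA log2 values of the 10 genes in each mouse (numbers give the replicate), Dp1Yey left and control right, with mean ± SD beside the points and the same span of 2.4 log2 units in every panel. Ecm2, Ucma and Ccdc80 separate the groups, Dp1Yey mouse 2 lies among the controls for Slc6a20a and Fmod, and the collagens overlap.

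The levels of Ecm2, Ucma and Slc6a20a were then set against the meningeal content of the single pieces of tissue. Meningeal content was read from a score, the mean log2 level of 23 meningeal marker genes, none of which is among the 10. They include the transporters Slc6a13, Slc13a4 and Slc22a6, the retinoic acid enzyme Aldh1a2, the forkhead factors Foxc1, Foxc2 and Foxd1 and the growth factors Igf2, Bmp5, Bmp6 and Bmp7. All 23 were above the floor, and several are also made by choroid plexus. The score was 7.21, 6.92, 7.17, 7.34 and 7.19 in Dp1Yey mice 1 to 5, against 7.11, 7.03, 6.99, 7.00 and 7.10 in control mice 1 to 5. Dp1Yey mouse 2 had the lowest score of all mice and the other 4 Dp1Yey mice had the highest scores. The means were 7.17 ± 0.15 in Dp1Yey mice and 7.05 ± 0.057 in control mice, a difference of 0.12. It was 0.078 without Dp1Yey mouse 4 and 0.18 without Dp1Yey mouse 2. Dp1Yey mice 2 and 4 carried 85.2% of the score's sum of squares within groups, so every slope below leans on them.

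Of the 23 markers, 18 were on average higher in Dp1Yey mice, where 42.1% of all genes were higher. The median difference was 0.075 against -0.015 over all genes. The markers were listed with earlier results of these data known, so their differences are a description. In limma 1 of the 23 was called, Gjb2, a connexin of gap junctions, where 0.797% of all genes were called. It averaged 8.22 ± 0.18 in Dp1Yey mice and 7.76 ± 0.087 in control mice (limma adjusted p = 0.0203), and its groups did not overlap. The call was lost without Dp1Yey mouse 3 or control mouse 4, without control mice 1 and 2 together, and once the interquartile range entered the fit. Aldh1a2 had 7.06 ± 0.21 in Dp1Yey mice and 6.68 ± 0.13 in control mice (limma adjusted p = 0.080). Slc13a3 differed by 0.24 and Slc22a8 by 0.33, neither past the adjusted threshold. Without Dp1Yey mouse 2, Aldh1a2 and Slc13a3 were called as well.

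Among mice of the same group, the fitted slope on the score was positive for 7 of the 10 genes and slightly negative for Ecm2, Ucma and Ccdc80, and none of the 10 slopes passed the adjusted threshold. The test was a limma fit with group and score as terms, so the slope of a gene uses only differences among mice of 1 group and is separate from the contrast that chose the genes. The score list was itself written with earlier results of these data known. Meningeal fibroblasts also make the collagens and proteoglycans, so positive slopes for these genes were likely beforehand, and the counts below are a description. No gene of 19938 passed after adjustment (0.0%), and the lowest adjusted p among the 10 genes was 0.401, for Fmod. Without control mice 1 and 2, Ogn passed (limma adjusted p = 0.0456). Of all genes, 47.6% had a slope above 0. All 7 positive slopes had an unadjusted p under 0.05, against 1.09% of all genes. Without Dp1Yey mouse 2 this held for 3 of the 10 (Fmod, Dcn and Lum), against 1.26% of all genes, and without Dp1Yey mice 2 and 4 also 3 (Fmod, Ucma and Lum), against 2.94%. On all 10 arrays, slopes were also mostly positive in the cell type and matrix lists described below. This held for 13 of 13 choroid plexus, 13 of 14 endothelial, 11 of 15 mural and 9 of 10 border macrophage markers. It also held for 25 of 32 collagens and their processing proteins and 7 of 11 other small proteoglycans. At an unadjusted p under 0.05 these lists held 2, 1, 5, 0, 3 and 2 positive slopes, in that order.

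The proteoglycans had the steepest slopes. The fitted slope, in log2 units per unit of score, was 2.67 ± 0.51 for Ogn, 2.27 ± 0.48 for Dcn, 2.07 ± 0.30 for Fmod and 1.95 ± 0.57 for Lum (± SE, 10 arrays). The collagen slopes were shallower, 1.01 ± 0.30 for Col1a2 and 0.64 ± 0.25 for Col1a1. Slc6a20a lay between, with 1.17 ± 0.28. For these genes Dp1Yey mouse 2, with the lowest score, had the lowest level of its group, and Dp1Yey mouse 4, with the highest score, had the highest level, level with mouse 5 for Slc6a20a.

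Ecm2 had a slope of -0.044 ± 0.34, Ucma of -0.015 ± 1.01 and Ccdc80 of -0.15 ± 0.23. Their 95% intervals ran from -0.80 to 0.71 for Ecm2, from -2.23 to 2.20 for Ucma and from -0.64 to 0.35 for Ccdc80. The Ucma interval takes in the slopes of all the other genes except Ogn and Dcn. Dp1Yey mouse 2 carried the highest Ecm2 level of its group at the lowest score, and Dp1Yey mouse 4 the lowest Ucma level at the highest score. Without these 2 mice, the Ecm2 slope was 1.04 (95% CI -0.81 to 2.89) and the Ucma slope 4.95 (0.19 to 9.71), while that of Slc6a20a was 1.55 (-0.31 to 3.41). The near-zero slopes of Ecm2 and Ucma therefore rest on these 2 arrays, and the difference between their slopes and those of the other genes was not tested. Without Dp1Yey mouse 2 alone, the slope was 1.07 for Ecm2 and 1.01 for Slc6a20a.

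**Figure D2:**
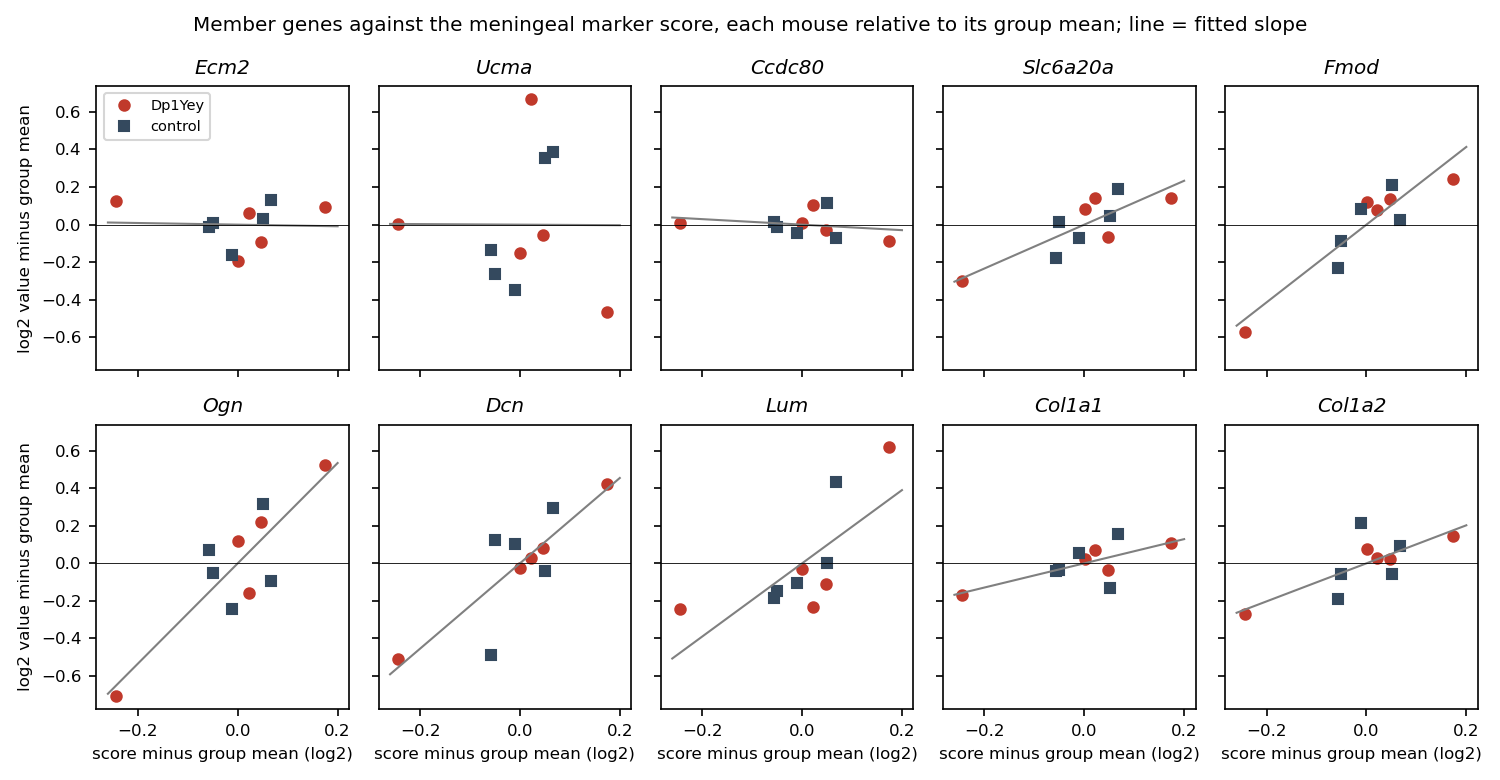
Level of each gene against the meningeal score, both as log2 deviations from the mean of the mouse's own group, for Dp1Yey mice (circles) and control mice (squares), with the fitted slope as a line. The line rises for 7 genes, with slopes of 0.64 to 2.67, and is nearly flat for Ecm2, Ucma and Ccdc80, and 2 Dp1Yey mice lie far to the left and right of the rest.

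A gene's difference at equal score is its difference without the score, less its slope times the score difference between the groups. The values below therefore restate the slopes and are no separate result. With the score held equal between the groups, the Dp1Yey minus control differences of Ecm2, Ucma and Ccdc80 were nearly the same as without it. They were 0.46 (95% CI 0.28 to 0.64) for Ecm2, 0.99 (0.47 to 1.52) for Ucma and 0.24 (0.12 to 0.36) for Ccdc80, against 0.45, 0.99 and 0.22 with group as the only factor. The difference of Slc6a20a was 0.32 (0.18 to 0.47) at equal score, against 0.47 without it, and that of Fmod 0.27 (0.11 to 0.43), against 0.52. Both were smaller than without the score. With the score taken from the collagen list instead, both were larger, 0.70 for Slc6a20a and 0.91 for Fmod, while Ecm2 had 0.41 and Ucma 0.93.

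The other 5 genes had lower differences with the score in the fit, and those of Ogn and Dcn changed sign. At equal score the difference was -0.035 for Ogn, -0.17 for Dcn, -0.24 for Lum, -0.15 for Col1a1 and -0.29 for Col1a2, and the intervals of both collagens lay below 0 (-0.28 to -0.017 for Col1a1, -0.45 to -0.13 for Col1a2). Without Dp1Yey mice 2 and 4 both intervals spanned 0 (-0.40 to 0.18 for Col1a1, -0.61 to 0.088 for Col1a2). With the score from the collagen list, the differences were above 0, at 0.059 for Col1a1, 0.098 for Col1a2, 0.56 for Ogn, 0.64 for Dcn and 0.35 for Lum. Averaged over Ecm2, Ucma and Slc6a20a the equal-score difference was 0.59. Without Dp1Yey mice 2 and 4 it was 0.32, and the single values were 0.23 (-0.083 to 0.54) for Ecm2, 0.43 (-0.38 to 1.23) for Ucma and 0.30 (-0.019 to 0.61) for Slc6a20a, while the differences without the score were 0.38, 1.15 and 0.52. These values describe the fit and carry no p-value.

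**Figure D3:**
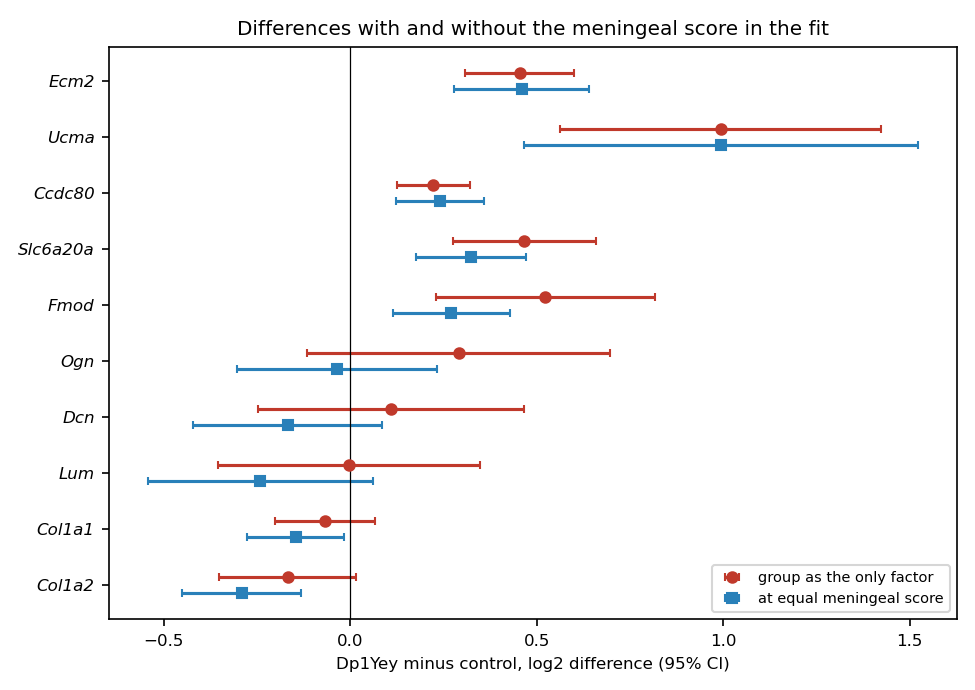
Dp1Yey minus control log2 difference of each gene with its 95% CI, from the fit with group alone (circles) and from the fit at equal meningeal score (squares). The pairs coincide for Ecm2, Ucma and Ccdc80, move towards 0 for Slc6a20a and Fmod, and lie further below 0 for the collagens.

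The mean of the 7 genes other than Ecm2, Ucma and Slc6a20a ordered the Dp1Yey mice much as the score did, with mouse 4 highest and mouse 2 lowest. It was 7.62, 7.22, 7.62, 7.86 and 7.56 in Dp1Yey mice and 7.57, 7.46, 7.30, 7.41 and 7.51 in control mice. As a description over 10 arrays, with deviations from group means, Slc6a20a correlated with it at r = 0.84, at the 99.9th percentile of genes above the floor. Ecm2 (r = -0.07) and Ucma (r = -0.10) lay at the 42.7th and 38.4th percentile. Dp1Yey mice 2 and 4 lay farthest from their group mean here too, so these r lean on them, as the slopes do. No r is given without these 2 mice. Between pairs of the 10 genes, r was highest for Dcn and Col1a2 (0.85) and lowest for Ccdc80 and Lum (-0.60), and it was 0.64 for Ucma and Ccdc80 and 0.41 for Ecm2 and Ucma.

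The genes most like each in that measure were different ones. For Slc6a20a they were Slc13a4 (r = 0.94), a sulfate transporter and marker of the score, Atp7b (0.93), Acss3 (0.92), Zfp352 (0.91) and Tspo (0.91). Slc13a4 was higher in control mice 1, 4 and 5 than in control mice 2 and 3, as was the choroid plexus list described below. For the mean of the 7 genes they were Ddr2 (0.97), a collagen receptor, Colec12 (0.96), Aldh1a2 (0.96), Enpep (0.91) and Ccdc12 (0.90). For Ucma they were Trpv3 (0.96), Bdh2 (0.94), Bsg (0.93), Nat8f1 (0.92) and Ddo (0.92), and for Ecm2 they were Mbd6 (0.91), Mt3 (0.88), Creb3l1 (0.88), Lrrc20 (0.86) and Ercc1 (0.85). Each list holds the highest r among 15162 genes above the floor, over 10 arrays. Picking the highest of so many makes r high even without a link, and no r was tested. Zfp352 (5.41 in Dp1Yey mice, 5.50 in control mice) and Trpv3 (5.53 in Dp1Yey mice, 5.62 in control mice) lay close to the floor of 5.45. None of the 5 named for Ecm2 or the 5 named for Ucma is a marker of the meningeal list, and nothing is read from this. Of all these genes Bdh2 alone was called between the groups, at 7.21 ± 0.26 in Dp1Yey mice and 6.61 ± 0.14 in control mice (limma adjusted p = 0.031).

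Other small leucine-rich proteoglycans and collagens were not called. Of 11 such proteoglycans, 5 were on average higher in Dp1Yey mice and the median difference was -0.037. Prelp, which binds basement membranes to connective tissue, had 9.45 ± 0.22 in Dp1Yey mice and 9.10 ± 0.18 in control mice (limma adjusted p = 0.13). Omd, or osteomodulin, differed by 0.25 below the floor, Podnl1 by -0.16 and Nyx by -0.12, and none of the 4 passed the test.

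Collagens and the proteins that process them were mostly lower. Of 32 measured, 7 had a higher and 25 a lower mean in Dp1Yey mice, with a median difference of -0.084. None was called at an adjusted p under 0.05, and without that adjustment 9 were lower at p under 0.05, where 10.8% of all genes were lower. Without control mouse 5, Col15a1 and P4ha3 were called. Col15a1, a collagen of basement membrane zones, had 6.39 ± 0.044 in Dp1Yey mice and 6.56 ± 0.066 in control mice (limma adjusted p = 0.056), with groups that did not overlap. Col6a3 differed by -0.23 and Adamts14, a procollagen protease, by -0.17, and the prolyl hydroxylase subunit P4ha3 by 0.22.

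Markers of other cell types that border the meninges were counted in the same way. Choroid plexus markers were lower: 0 of 13 had a higher mean in Dp1Yey mice and the median difference was -0.57. None was called in limma, 10 were lower at p under 0.05 without adjustment (10.8% of all genes), and 6 were called lower by the rank statistic (0.993% of all genes). Without control mouse 3, Aqp1, Folr1 and Slc4a5 passed in limma. The list mean was 7.01, 6.77, 6.78, 7.34 and 7.22 in Dp1Yey mice and 8.39, 7.04, 6.88, 8.03 and 8.13 in control mice. Control mice 1, 4 and 5 were high, and control mice 2 and 3 lay within the range of the Dp1Yey mice. Aqp1, a water channel, had 6.23 ± 0.026 in Dp1Yey mice and 6.61 ± 0.24 in control mice (limma adjusted p = 0.076), and the bicarbonate transporter Slc4a5 differed by -0.52. Among the control mice, Slc6a20a and the score markers Slc13a4, Igf2 and Igfbp2 were also higher in mice 1, 4 and 5 than in mice 2 and 3. Other score markers, such as Foxc1 and Slc22a6, were highest in control mouse 2. Slc6a20a and several score markers are also expressed in choroid plexus, and the part of this tissue in their levels was not tested.

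Endothelial markers were on average higher for 11 of 14 (median difference 0.050), mural cell markers for 7 of 15 (-0.0087) and border macrophage markers for 5 of 10 (0.0062), and none of them was called. Slco1a4, an organic anion transporter of brain endothelium, had 8.64 ± 0.14 in Dp1Yey mice and 8.30 ± 0.13 in control mice (limma adjusted p = 0.059), without overlap. Tek, an endothelial receptor, differed by 0.27 and the mural gene Vtn by 0.27. Of the border macrophage markers, 5 of 10 were above the floor. Stab1, a scavenger receptor, differed by 0.13 with no overlap. Siglec1 differed the other way, by -0.12, and so did Cd163, by -0.086 below the floor. Their part in the differences of Ecm2, Ucma and Slc6a20a was not tested.

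**Figure D4:**
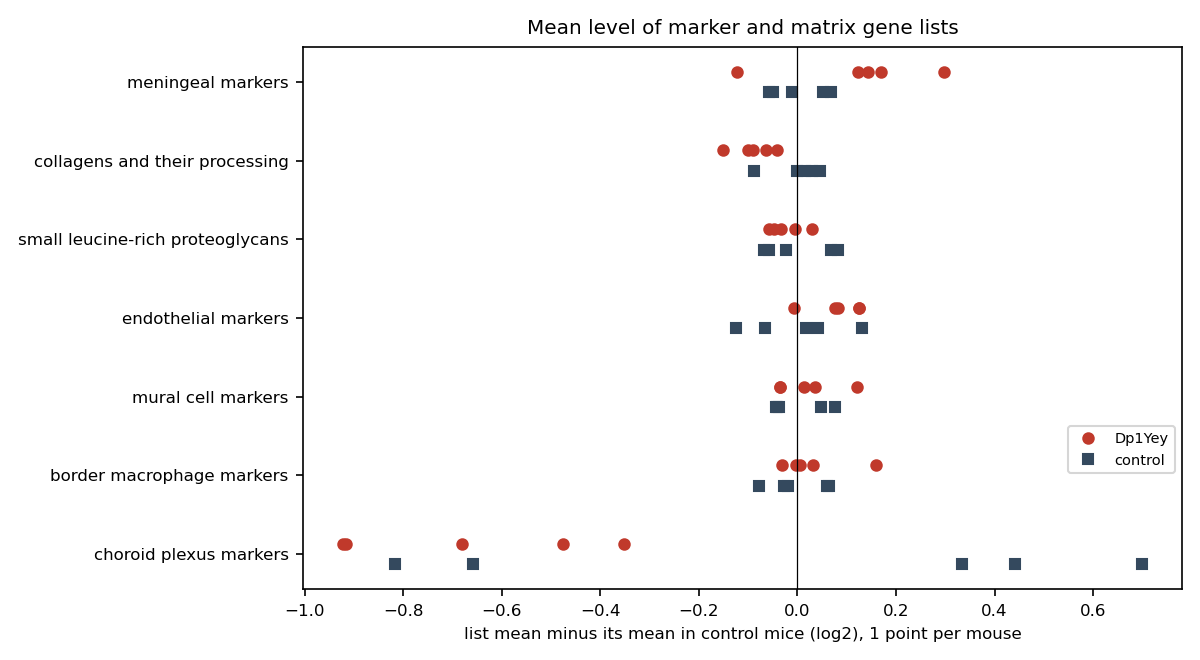
Mean log2 level of each gene list in each mouse, minus the mean of that list in control mice, for Dp1Yey mice (circles, upper row of each pair) and control mice (squares). The meningeal score is high in 4 of 5 Dp1Yey mice, the collagens are slightly low, and the choroid plexus list spans more than any other, with control mice 1, 4 and 5 high.

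Genes that share a function with Slc6a20a or Ucma were not called. Of 12 transporters of the solute carrier 6 family and other imino acid carriers, 4 had a higher mean in Dp1Yey mice. The paralogue Slc6a20b, next to Slc6a20a on chromosome 9, had 6.13 ± 0.046 in Dp1Yey mice and 6.19 ± 0.047 in control mice, a difference of -0.063 (95% CI -0.14 to 0.014). Of 15 gamma-carboxylated proteins and the enzymes of that modification, 9 had a higher mean, with differences of 0.17 for Prrg4 and -0.10 for Proc.

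The genes next to Ecm2, Ucma and Slc6a20a on their chromosomes were not called. Neighbours were taken by the position of their starts. Ecm2, on chromosome 13 at 49504810 to 49532789, lies between Tes3-ps (difference 0.025) and Aspn (-0.16), another small leucine-rich proteoglycan. It also lies within the span of Cenpp, at 49464025 to 49652950 (0.045, below the floor). Ucma, on chromosome 2 at 4976122 to 4985748, lies between Phyh (0.16, without overlap between groups) and Mcm10 (-0.13). Slc6a20a, on chromosome 9 at 123636907 to 123678832, lies between Slc6a20b and Lztfl1 (0.12). Of 100 genes within 500 kb of any of the 10 genes 1 was called, Gm10754, with a difference of 0.54, near Dcn and Lum. Over all genes 0.797% were called, so this count is near the background share.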

How the data were processed

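Hippocampal RNA of 5 Dp1Yey and 5 control mice was measured on 10 arrays. The authors deposited RMA log2 values, 1 column per mouse. The submitters' notes on processing list mm10, RMA and limma. RMA removes background, makes the distributions of the arrays alike and summarises probes, so a shift of all genes cannot be seen, and small differences of dim probe sets are compressed. Of 35556 rows, 21789 had 1 gene symbol in the platform annotation; the brightest probe set stood for each of 19938 genes. Positions came from RefSeq GRCm38.p6 by Entrez identifier.

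Two-sided tests used limma 3.58.1 in R 4.3.3, with group alone or with group and the meningeal score, and Benjamini-Hochberg adjustment over all genes at 0.05. Groups were taken from the labels. Scripts were tested on simulated data. The precision is limited by the number of arrays. The 10 genes and all lists were chosen with earlier results of these data known. Of each other list, up to 4 genes with the smallest p were named, with the 5 genes most like Ecm2, Ucma, Slc6a20a and the mean of the others, their neighbours and Slc6a20b. Nov, of the meningeal list, was not analysed here.

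Alternatives were other scalings, filters, probe set rules, variance models, array weights, scores, left-out arrays, the interquartile range as a covariate, a replicate block, and the study's fold change rank statistic, rewritten here as a trimmed mean rank over 25 pairs with tails of 0.025 and 0.975.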

Additional observations from a re-analysis of the deposited data

Results flagged for a closer look

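Of 38 groups of 5 mice tested, 2 held a value whose gap to the nearest mouse was more than 0.71 of the group's range, and chance gives such a value in about 1 group in 20. For Fmod it was Dp1Yey mouse 2, at 7.29 with the nearest other Dp1Yey mouse at 7.93. For Lum it was Dp1Yey mouse 4, at 6.52 with the nearest other Dp1Yey mouse at 5.86. These are the mice of lowest and highest meningeal score.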

How the results depend on the processing

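Ecm2, Ucma, Ccdc80, Slc6a20a and Fmod stayed higher in Dp1Yey mice in every alternative run. This supports nothing, because the genes were chosen with this contrast known. The numbers of calls moved. The numbers were 159 genes in all, 4 of the 10 genes, 1 gene of the other lists (Gjb2) and 1 neighbour (Gm10754). With the interquartile range as a covariate they were 46, 0, 0 and 0, at the loss of 1 degree of freedom. With an intensity trend and robust prior 2 of the 10 genes (Slc6a20a and Ecm2) and 2 list genes were called. Median centring, the genes above the floor and array weights also gave 2 list genes, the second being Slco1a4. Without control mice 1 and 2, 1 of the 10 genes (Ecm2) and 0 list genes were called, and 1 of the 10 genes (Ogn) passed the slope test. The rank statistic called 689 genes, 491 higher and 198 lower. Leaving out 1 mouse at a time gave 70 to 232 genes, 1 to 4 of the 10, 0 to 4 list genes and 1 to 2 neighbours.

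Small values changed sign. The Lum difference was 0.052 after quantile normalisation, 0.0046 after median centring, 0.034 with array weights, 0.11 without control mice 1 and 2 and -0.16 to 0.10 leaving out 1 mouse. The Col1a1 difference was 0.026 with the interquartile range and 0.0013 without control mice 1 and 2, and the Dcn difference ran between -0.013 and 0.24 leaving out 1 mouse. The Ecm2 slope was 0.072 after quantile normalisation and 0.036 after median centring, and the Ucma slope 0.046 after quantile normalisation. With the replicate block the slopes were further below 0, at -0.49 for Ecm2, -1.17 for Ucma and -0.28 for Ccdc80. Without Dp1Yey mice 2 and 4 the slopes were 1.04 for Ecm2, 4.95 for Ucma and 0.012 for Ccdc80, 3 of the 10 genes had a positive slope at an unadjusted p under 0.05, and the mean equal-score difference of Ecm2, Ucma and Slc6a20a was 0.32. Leaving out 1 mouse, the slopes ran between -0.37 and 1.07 for Ecm2, -0.34 and 1.48 for Ucma and -0.41 and 0.057 for Ccdc80, with 3 to 7 of the 10 genes positive at that level, and the mean equal-score difference between 0.53 and 0.67. Without Dp1Yey mouse 2 the Ecm2 slope was 1.07 and its equal-score difference 0.23. With a score from the collagen list, the equal-score differences of Slc6a20a, Fmod, Ogn, Dcn, Lum and both type I collagens were higher than without any score. The collagen list mean was lower in Dp1Yey mice, by -0.0895, and the meningeal score higher, by 0.12. A positive slope on each therefore moves the differences in opposite directions. The cause of the other changes was not tested.

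Same-numbered mice did not deviate together (r of -0.33 to 0.22, over 0.1 in 1 of 5 pairs). This cannot show whether the numbers mark a pairing, such as litters, and the main fit does not pair the mice. With the replicate block, 94 genes, 2 of the 10 genes (Ecm2 and Ucma), 2 list genes (Gjb2 and Ttr) and 0 neighbours were called. With 5 arrays a group and a score that spans little in control mice, slopes near 0 are loosely bounded.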
